A study of Mus musculus with 7 samples.

Results

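Oligodendrocyte precursor cells (OPCs) were studied as 201 of 23005 barcodes kept from single-cell RNA libraries of mouse embryonic cortex. A member was a barcode with at least 2 unique molecular identifiers (UMIs) summed over Pdgfra, Olig1, Olig2, Sox10 and Cspg4, with at least 2 of these 5 genes detected. It had at most 1 UMI of Neurod6, an excitatory neuron gene, and 0 UMIs of Cldn5, an endothelial gene. Because the members were selected on the measured values of these 7 genes, their levels below are read as a description and not as a test. The name OPC follows this rule and is less certain for 70 members with Olig1 and Olig2 alone, described below. Seq-Well, in which single cells share small wells with barcoded beads, gave 1 library for each of 7 cortices collected at E18.5 from 1 litter, whose dam received tamoxifen at 100 mg/kg on E10.5. The 4 mutants (embryos 10, 11, 12 and 17) were Emx1CreERT2;Ash1lfl/fl and the 3 controls (embryos 14, 15 and 16) were Ash1lfl/fl. All 7 embryos therefore carried floxed Ash1l and were exposed to tamoxifen, and the recombinase was present only in the mutants. The recombinase comes from Emx1, a gene of dorsal telencephalic progenitors, which limits the mutants as a model for OPCs of other origin.

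OPCs are the dividing glial cells that later give rise to myelinating oligodendrocytes. Their receptor for platelet-derived growth factor, encoded by Pdgfra, carries a mitogenic and survival signal, Olig1, Olig2 and Sox10 are transcription factors that establish the lineage, and Cspg4 encodes the NG2 proteoglycan. In the forebrain they arise from ventral and later also dorsal radial glia, passing through dividing Olig2- and Egfr-positive intermediates, and they pass through a Gpr17- and Bcas1-positive committed stage before they make myelin. Ash1l encodes a histone H3 lysine 36 methyltransferase.

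The libraries held 7083225 to 11859209 UMIs. Members numbered 29, 29, 35 and 26 in mutants 10, 11, 12 and 17, and 36, 25 and 21 in controls 14, 15 and 16. Their summed UMIs ran from 51996 to 142986 per embryo, so that 1 UMI was worth 6.99 to 19.2 CPM (the standard CPM scale, a gene's UMIs relative to all UMIs of the same cells in the same embryo). The median member had 2317 UMIs, against 1391 in all other kept barcodes and 1707 in 2141 barcodes of a radial glia gate described below. Doublets were not removed. Of all barcode sequences, 96 occurred in 2 or more libraries, and the barcode of 1 member was also kept in another library. Where values are listed by embryo they stand in the order 10, 11, 12 and 17 for the mutants and 14, 15 and 16 for the controls.

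The 5 defining genes were detected in uneven combinations. Olig1 had a UMI in 188 members, Olig2 in 125, Pdgfra in 115, Cspg4 in 50 and Sox10 in 38. The same genes were found in 1.31%, 0.667%, 0.658%, 0.623% and 0.0526% of all other kept barcodes, and in 1.10%, 0.653%, 0.560%, 0.536% and 0.163% of the 4288 barcodes with at least 2 Neurod6 UMIs, whose median depth was 2641 UMIs. The largest combination was Olig1 with Olig2 and none of the other genes (70 members). Pdgfra with Olig1 followed (34), then Pdgfra, Olig1 and Olig2 (22), and 11 members held all 5 genes. The median member had 5 UMIs of the 5 genes and the highest had 86.

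**Figure D1:**
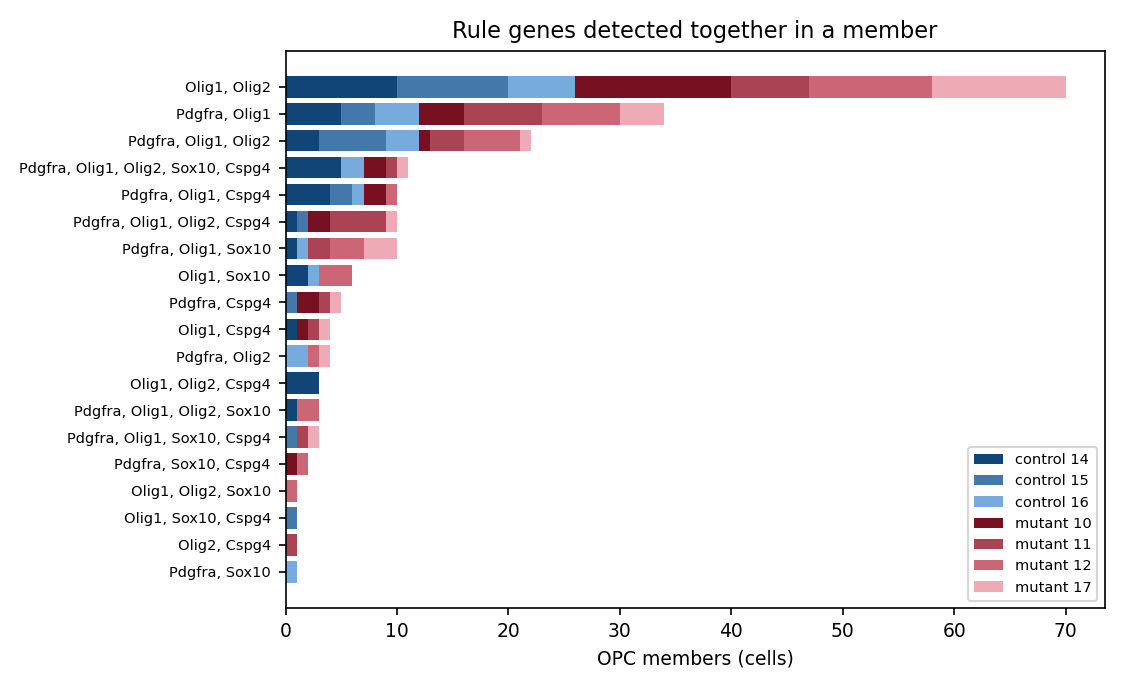
Number of members (horizontal axis, cells) for each set of defining genes detected together (vertical axis), stacked by embryo. Olig1 with Olig2 alone was the largest set, with 70 members, and was found in all 7 embryos.

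Near the threshold, 44 members had exactly 2 UMIs of the 5 genes and 125 had 2 of the genes. Just outside it, 544 kept barcodes had 1 such UMI, and 158 had 2 or more UMIs of only 1 of the genes. A further 20 barcodes met the gene requirement but had 2 or more Neurod6 UMIs, and 1 had Cldn5.

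Per embryo, Pdgfra stood at 920, 1117, 427 and 450 CPM in members of the 4 mutants and at 881, 544 and 1289 CPM in the 3 controls. Olig1 was between 806 and 1371 CPM, Olig2 between 273 and 462, Cspg4 between 76.6 and 298, and Sox10 between 31.1 and 153. In all other kept barcodes Pdgfra was 2.28 to 7.31 CPM and Olig1 4.55 to 13.2 CPM.

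The label was checked against genes that the rule did not use. The contrast of members with all other kept barcodes used UMIs summed per embryo and edgeR's quasi-likelihood test with the embryo as a block. Without the genes used by the rule, it tested 11161 genes, of which 3083 (27.6%) passed an adjusted p of 0.05, 1227 (11.0%) higher and 1856 (16.6%) lower in members. Genes that accompany the 5 defining genes, Neurod6 or Cldn5 in the same cells are not independent of the choice, so these calls describe the chosen barcodes. Of 21 tested OPC identity genes, 17 were higher and 0 lower, with a median log2 fold change of 2.12 against −0.14 over all genes tested. The processing moved that background. RLE factors gave a median of −0.04 with 1453 genes higher and 1512 lower. Of the same 11161 genes DESeq2 called 1184 higher and 1050 lower. Thinning every barcode to 1000 UMIs left 8665 genes tested, with a median of −0.69, 148 higher and 1243 lower. In this and every thinned fit below, members and the radial glia gate were chosen again on the thinned counts. After thinning, 12 of 17 tested identity genes were still higher and 0 lower, as were 5 of 17 S phase genes, 10 of 19 G2/M genes and 6 of 15 radial glia and astroglia markers.

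Serpine2, which encodes a secreted protease inhibitor, had the smallest p of the genes named here. Its level was 629, 670, 317 and 403 CPM in members of the 4 mutants and 511, 497 and 654 CPM in the 3 controls. All other kept barcodes held 9.10 to 19.6 CPM, without overlap (log2 fold change 5.01, SE 0.17; edgeR adjusted p = 1.6e-175). The gene lies on chromosome 1 at 79794197 to 79861180 on the minus strand (mm10, GENCODE). Its promoter is shown because it was the clearest of these genes and its upstream bases hold a SOX core motif, in capitals, the letters bound by the family of Sox10. The sequence is the part of the RefSeq promoter (GRCm38.p6, chr1:79858697-79858915, minus strand, 5′ to 3′) that lies before both the RefSeq start and the start of the matching GENCODE exon. It falls within the GENCODE span of the gene, which reaches farther upstream.
Serpine2: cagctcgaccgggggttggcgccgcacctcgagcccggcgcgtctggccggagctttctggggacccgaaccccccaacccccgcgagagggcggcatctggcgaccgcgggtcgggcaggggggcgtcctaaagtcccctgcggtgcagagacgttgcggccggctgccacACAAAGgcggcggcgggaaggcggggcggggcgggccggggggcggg
The motif was searched on both strands, as ACAAAG and CTTTGT. In windows from 250 bases before to 50 after the start it was found in 114 of 902 promoters of such genes (12.6%), in 12.9% of 8412 promoters of all tested genes and in 18.7% of 27025 RefSeq promoters. An E-box, CAGCTG, was found in 15.7% of promoters of genes higher in members and 14.3% of promoters of all tested genes. A match is a description of letters in this window.

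Other identity genes were also higher in members. Gpr17, an orphan receptor of committed precursors, was 153, 24.8, 43.8 and 46.5 CPM in members of the 4 mutants and 168, 109 and 96.2 CPM in the 3 controls. It did not exceed 0.600 CPM in all other barcodes of any embryo (log2 fold change 8.27, SE 0.49; edgeR adjusted p = 9.62e-62). Every embryo showed the difference, from 64 Gpr17 UMIs in 31 members. Pcdh15, a protocadherin, ranged from 32.8 to 133 CPM in members and from 1.91 to 4.55 CPM in all other barcodes (log2 fold change 4.57, SE 0.39). Bcan, a proteoglycan of the extracellular matrix, ranged from 249 to 741 CPM in members and from 27.0 to 62.6 CPM elsewhere (3.25, SE 0.16). Ednrb, the endothelin receptor, ranged from 341 to 846 CPM and from 34.2 to 69.4 CPM (3.26, SE 0.15). All 3 were higher in members of all 7 embryos. Ptprz1, Cspg5, C1ql1, Sox6, Sox8, Megf11, Scrg1, Epn2, Rlbp1, Nxph1, Cntn1 and Fabp7 also passed. Vcan, Tnr, Luzp2 and Cacng4 did not.

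Among genes with at least 50 CPM in the higher class and the same sign in every embryo, the 15 largest differences toward members were Gpr17, Bcas1, Serpine2, Col19a1, Pcdh15, Adam12, Lnx1, Itpr2, Chrdl1, Il1rap, Enpp2, Metrn, Egfr, Xylt1 and Car8. Their log2 fold changes ran from 8.27 to 3.79. Col19a1 (4.83, SE 0.45) is a minor collagen, Adam12 (4.42, SE 0.44) a metalloprotease, and Enpp2 (4.03, SE 0.34) the enzyme autotaxin, which makes lysophosphatidic acid. The 10 largest differences in the other direction were Reln, Hba-a1, Scg2, Sla, Neurod1, Gmip, Elmod1, Clmp, Gas7 and Nos1, from −3.46 to −2.81. Reln, the secreted signal of Cajal-Retzius cells, fell from 337 to 710 CPM in all other barcodes to 0 to 202 CPM in members.

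Genes of committed oligodendrocytes were measured from the earliest to the latest stage. Of 24 listed genes 11 were tested, and 7 were higher in members (Gpr17, Itpr2, Bcas1, Tns3, Cnp, Mbp and Ugt8a) with 0 lower. Thinned to 1000 UMIs, 2 of 6 were higher. Bcas1, a marker of newly committed cells, was 80.7, 49.7, 54.7 and 31.0 CPM in the 4 mutants and 112, 77.7 and 96.2 CPM in the 3 controls, against at most 3.93 CPM elsewhere. Itpr2, a calcium release channel, was 31.0 to 168 CPM against at most 5.70 CPM. The myelin genes stood lower. Mbp, which encodes myelin basic protein, was 14.0 to 96.2 CPM in members and 14.2 to 21.0 CPM elsewhere (log2 fold change 1.14, SE 0.39; edgeR adjusted p = 0.0168). Mog, a gene of mature oligodendrocytes, had 0 UMIs, which allows up to 4.84 CPM over all members.

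Receptor genes and the targets of their signalling followed. Of 20 tested, 12 were higher in members and 2, Met and Ntrk3, were lower. Thinned to 1000 UMIs, 4 of 15 were higher and 0 lower, and DESeq2 called 14 of 24 higher and 0 lower. Egfr, the epidermal growth factor receptor, was 282, 559, 262 and 341 CPM in the 4 mutants and 308, 311 and 308 CPM in the 3 controls. All other barcodes held 11.8 to 26.4 CPM (log2 fold change 3.95, SE 0.21). Ccnd1, cyclin D1, which mitogens induce, was 224 to 442 CPM against 19.6 to 26.0 CPM (3.50, SE 0.20). The feedback and target genes Spry1, Spry2, Spry4, Spred1, Dusp6, Etv1, Etv4 and Etv5 were all higher, Spry2 by 1.95 on the log2 scale (SE 0.28). Of the ligands, 8 of 14 were tested. Bmp7 (2.85, SE 0.47) and Wnt7a (1.05, SE 0.35) were higher and Wnt7b was lower, while Pdgfa, which encodes the ligand of Pdgfra, stood at 0 to 115 CPM in members and 33.6 to 57.4 CPM elsewhere without passing.

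Cell cycle genes were higher in members. All 20 S phase genes and all 20 G2/M genes were higher than in all other barcodes, with medians of 1.68 and 2.10 on the log2 scale. Mki67, the proliferation antigen, was 589, 757, 383 and 279 CPM in the 4 mutants and 867, 1803 and 288 CPM in the 3 controls, against 101 to 163 CPM. It had a UMI in 76 of the 201 members. Of 17 radial glia and astroglia markers 14 were higher, among them the glutamate transporter gene Slc1a3 (1.65, SE 0.12). Gfap, of mature astroglia, had 0 UMIs in members. Of 21 progenitor transcription factors 11 were higher (among them Hes1, Hes5, Id1, Id3, Sox2, Sox3, Sox9, Zeb1, Tcf12 and Prrx1) and 6 were lower (Id2, Sox4, Sox11, Nfib, Nfix and Tcf4). With every barcode thinned to 1000 UMIs this list turned, with 2 higher and 7 lower of 19. That fit called 148 higher and 1243 lower of 8665 genes tested. Of 17 Notch genes 7 were higher and 3 lower, with Dll1, a ligand, at 76.9 to 187 CPM in members and 30.2 to 46.8 CPM elsewhere (1.62, SE 0.25). The thinned fit called 0 of 13 Notch genes higher and 1 lower. Of 16 Hedgehog, Wnt and BMP genes 6 were higher and 1 lower in members, and the thinned fit called 0 of 9 higher and 1 lower.

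Genes of neurons were lower. The rule limited Neurod6 in members and not in the other barcodes, so this direction follows in part from the choice. Of 10 excitatory neuron markers 9 were lower and 0 higher, Stmn2 falling from 879 to 1568 CPM in all other barcodes to 137 to 713 CPM. Of 21 ion channel and transmitter receptor genes 11 were lower, including Gria1, Gria2, Grin2b and Scn2a1. The 3 that were higher were Gria3, an AMPA receptor subunit (0.70, SE 0.28), and the potassium channel genes Kcnj10 (1.94, SE 0.38) and Kcnd2 (1.41, SE 0.27). Of 9 ventral regional genes 5 were lower and 0 higher, and of 9 dorsal regional genes 4 were lower and 0 higher. DESeq2, which tested 13 ventral genes, called 2 higher and 3 lower. Gsx2, a transcription factor of the lateral ganglionic eminence, was too low for the edgeR fit, at 0 to 40.3 CPM in members and 0.901 to 2.80 CPM elsewhere. Nkx2-1, of the medial ganglionic eminence, was 0 to 21.9 CPM and 0.150 to 0.996 CPM. Both ranges overlapped those of other barcodes through embryos with 0 UMIs.

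Other cell types left traces in the members. At least 2 UMIs of excitatory neuron markers were found in 80 members, of erythroid markers in 15, of pericyte markers in 6, of endothelial markers in 3, of fibroblast markers in 2 and of microglia markers in 1. The summed excitatory neuron list was 0.0695% to 0.262% of member UMIs per embryo, against 0.416% to 0.605% in all other barcodes. That list includes Neurod6, and the endothelial list includes Cldn5. The rule limited both in members, so the values of these lists are partly set by the choice. The erythroid list was 0.00656% to 0.0881% of member UMIs against 0.0991% to 0.286%. Microglia markers reached 0.0559% in mutant 11, where 1 member held 45 of 47 such UMIs, and were 0 in the median embryo. Pericyte markers reached 0.0434% and fibroblast markers 0.143% in the highest embryo, and endothelial markers 0.00620%. A single member of mutant 11, with Pdgfra and Cspg4 and 2356 UMIs in all, held 111 of the 116 UMIs of Col1a1, Col1a2 and Col3a1. Without members that held 2 or more UMIs of the microglia, pericyte, fibroblast or endothelial lists, 3012 genes were called against all other barcodes, with 17 of 21 identity genes higher.

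Members were next compared with barcodes of radial glia, the stem cells that line the ventricle. Other progenitor classes were not compared, so which class lies nearest to the members was not tested. A gate on Slc1a3, Hopx, Aldoc, Mfge8 and Hes5 gave 180 to 418 barcodes per embryo. It asked for at least 2 UMIs and 2 genes, with the same limits on Neurod6 and Cldn5, and took no members. The gate did not exclude astroglia. Of its barcodes 33.6% had a UMI of Aldh1l1, an astroglial marker, and 6.63% one of Gfap. Without the genes of either rule, 6946 genes were tested, and 510 (7.34%) passed in the edgeR test with the embryo as a block, 244 (3.51%) higher and 266 (3.83%) lower in members. Of 16 tested OPC identity genes 8 were higher (Bcan, Cspg5, Pcdh15, Ednrb, Epn2, Rlbp1, Serpine2 and Cntn1) and 1, Fabp7, was lower. Genes that accompany the defining genes of either set are not independent of the choice, so calls against the gate describe the chosen barcodes.

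The largest differences toward members were Bcas1 (log2 fold change 5.01, SE 0.50), Pcdh15 (4.38, SE 0.41), Cntn1 (4.32, SE 0.29) and Serpine2 (3.91, SE 0.18). Cntn1, a contactin that OPCs display at their surface, was 653, 608, 241 and 186 CPM in members of the 4 mutants and 329, 77.7 and 500 CPM in the 3 controls. The radial glia gate held 7 to 32.4 CPM and all other barcodes 34.9 to 62.0 CPM, so that members lay above both in every embryo. Adam12, Gatm, Enpp2, Sulf2, 3110035E14Rik, Il1rap, Itpr2, Mmp15, Dscam, Kcnd2 and Ppfibp1 completed the 15 largest. The 10 largest in the other direction were Lipg, Naaa, 1500015O10Rik, Ctgf, Loxl1, Igfbp5, Cntnap2, Ccdc80, Tfap2c and Clu, from −3.43 to −2.46.

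**Figure D2:**
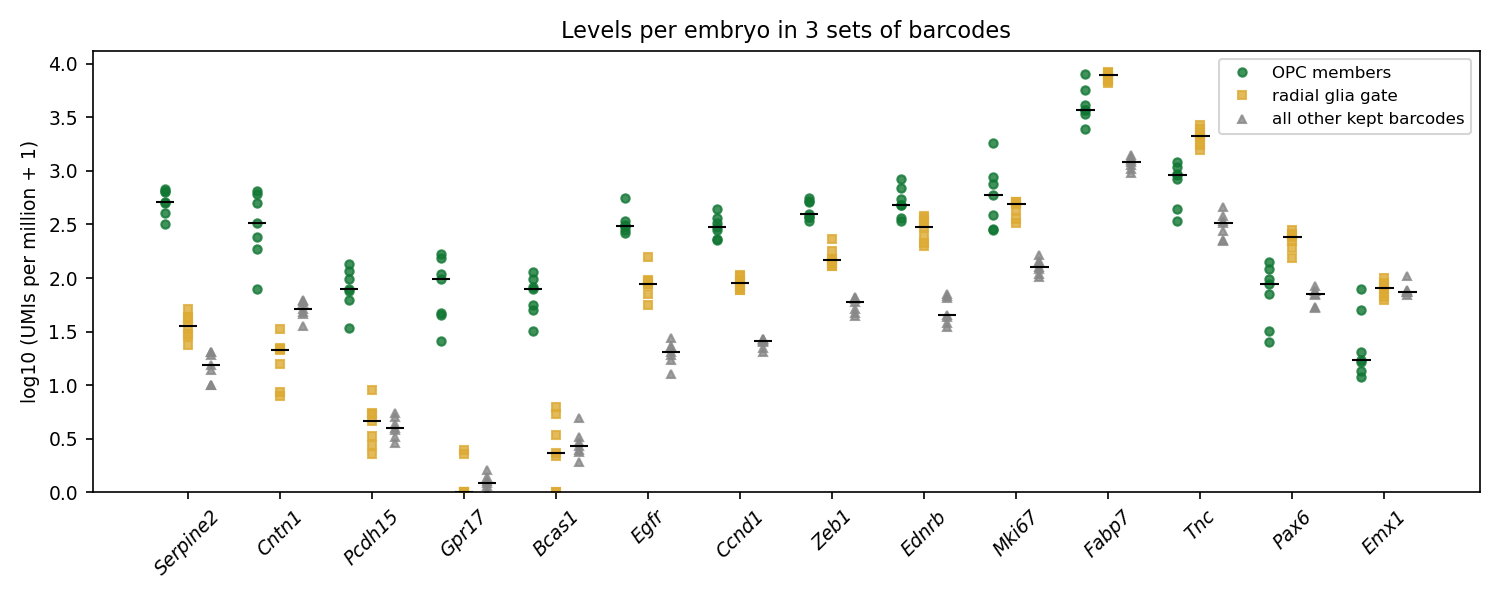
Level of 14 genes on a log10 (CPM + 1) scale (vertical axis) in members, the radial glia gate and all other kept barcodes, with 1 symbol per embryo and a bar at the median. Serpine2, Cntn1, Pcdh15 and Bcas1 of members lay above both other sets in all 7 embryos, while Pax6 and Emx1 of members lay below the radial glia gate in all 7.

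Dorsal regional genes were lower in members than in radial glia. Of 9 tested, 7 were lower (Emx1, Emx2, Pax6, Eomes, Neurog2, Lhx2 and Tfap2c) and 0 higher, with a median of −1.42 against 0.01 over all genes tested. Emx1, whose locus drives the recombinase in the mutants, was 16.1, 12.4, 10.9 and 77.5 CPM in members of the 4 mutants and 49.0, 15.5 and 19.2 CPM in the 3 controls. In the radial glia gate it was 61.0 to 100.0 CPM, above the members of the same embryo in all 7 (log2 fold change −1.42, SE 0.33; edgeR adjusted p = 0.00317). These Emx1 values rest on 18 UMIs. Pax6, of cortical radial glia, was 24.2 to 140 CPM in members and 154 to 279 CPM in the gate (−1.56, SE 0.22).

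Radial glia genes outside the gate were lower as well, 7 of 12 (Fabp7, Slc1a2, Aldh1l1, Tnc, Clu, Ddah1 and Mt3). Only Ednrb was higher. The gate was chosen on genes of the same kind, so these counts are not independent of that choice. Tnc, the matrix protein tenascin C, was 341 to 1203 CPM in members and 1561 to 2658 CPM in the gate (−1.33, SE 0.12). Ptprz1, which encodes a receptor phosphatase of both cell types, stood at 977 to 2420 CPM and 1151 to 1815 CPM, with a log2 difference of 0.02 (SE 0.10) that did not pass.

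Among signalling genes, Egfr (1.92, SE 0.16), Erbb4 (1.58, SE 0.29), Dusp6 (0.94, SE 0.28) and Ccnd1 (1.79, SE 0.17) were higher in members than in radial glia, and Fgfr1, Fgfr2 and Ntrk2 were lower. Of 12 Notch genes Dll1 and Dner were higher and Notch2, a receptor, was lower (−1.85, SE 0.18). The receptors Notch1 and Notch3 and the ligand Jag1 did not pass. Notch2 was 46.6 to 131 CPM in members and 177 to 390 CPM in the gate. Of 10 Hedgehog, Wnt and BMP genes 4 were lower (Gli3, Boc, Cdon and Daam2) and 0 higher. Among 19 progenitor transcription factors Zeb1 (1.51, SE 0.13) and Myt1 (1.06, SE 0.30) were higher, and Id4, Nfib, Nfix and Tcf4 were lower. Of 6 tested genes of committed oligodendrocytes Itpr2, Fyn, Bcas1 and Cnp were higher, against 0 of 2 in the thinned fit, and of 10 tested channel genes Gria3 and Kcnd2.

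Cell cycle genes were also higher than in radial glia, but fewer passed. Of 19 S phase genes 6 (Mcm5, Mcm6, Tyms, Rrm1, Rrm2 and Uhrf1) and of 20 G2/M genes 5 (Mki67, Top2a, Ccna2, Kif11 and Plk1) were higher, with 0 lower in either list. Mki67 differed by 0.57 on the log2 scale (SE 0.16; edgeR adjusted p = 0.0188) and was higher in members of 5 of 7 embryos. At least 2 UMIs from at least 2 of the G2/M genes were found in 49.0% ± 12.6 of members (SD over 7 embryos) and 40.9% ± 4.61 of the radial glia gate. Thinned to 1000 UMIs, the shares were 41.6% ± 15.9 and 31.7% ± 2.17, higher in members of 5 of 7 embryos. When the members were chosen again on the thinned counts, 34 of 104 had such UMIs. Their share was 31.3% ± 18.7, from 8.33% to 58.3% per embryo. That was close to the 31.7% of the gate, but the gate was as first chosen, so the sets were selected differently. With the members as first chosen, control 15 had the highest share (75.0%, 15 of 20 members) and control 16 the lowest (26.3%, 5 of 19). In the thinned fit, which used members and gate chosen again, 0 of 8 S phase and 0 of 4 G2/M genes passed against radial glia. That fit called 36 higher and 75 lower of 1418 genes tested.

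The members divided by their defining genes. The division is a description chosen after the values were seen. The 115 members with Pdgfra held 339270 UMIs and the 70 with Olig1 and Olig2 alone held 240793, with medians of 2205 and 2672 UMIs. The other 16 members belonged to neither set. Intervals below are exact 95% Poisson intervals of the pooled counts and cover counting error only.

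Cntn1 had 233 UMIs in the members with Pdgfra and 2 in those with Olig1 and Olig2 alone, or 687 CPM (601 to 781) and 8.31 CPM (1.01 to 30.0). It was detected in 50.4% and 1.43% of these members. Per embryo it ranged from 149 to 1368 CPM in the first set and from 0 to 30.8 CPM in the second, without overlap. Gpr17 had 63 and 0 UMIs, Pcdh15 50 and 0, Bcas1 45 and 1, and Myt1, a transcription factor, 41 and 2. A count of 0 in the second set allows up to 12.5 CPM. Serpine2 was 819 CPM (726 to 922) with Pdgfra and 154 CPM (108 to 212) without it, and Bcan 707 and 241 CPM. These 7 genes were higher with Pdgfra in all 7 embryos.

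By list, 22 of 25 identity genes with a UMI were higher with Pdgfra and 3 with Olig1 and Olig2 alone. The name OPC is less certain for the members with Olig1 and Olig2 alone, which lacked Pdgfra, Sox10 and Cspg4 by definition. Genes that accompany these are not independent of the split. The share of all genes higher in either set is not given here, so the counts by list have no background. All 20 S phase genes, 17 of 20 G2/M genes and 12 of 17 radial glia and astroglia markers were higher with Olig1 and Olig2 alone. Counting intervals of the sets lay apart for 16 of the identity genes, 11 of the S phase genes, 4 of the G2/M genes and 9 of the radial glia and astroglia markers. Of those 9 markers, Fabp7 (4810 CPM with Pdgfra and 3904 CPM without it) and Ednrb (675 and 465 CPM) were higher with Pdgfra. Plk1, a mitotic kinase, was also higher with Pdgfra (76.6 and 37.4 CPM), with intervals that overlapped.

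Egfr was 218 CPM (171 to 274) with Pdgfra and 498 CPM (413 to 596) with Olig1 and Olig2 alone, and was higher with Pdgfra in 0 of 7 embryos. Mki67 was 554 and 964 CPM and Slc1a3 637 and 1333 CPM, each likewise higher with Pdgfra in 0 of 7 embryos. Mfge8, a secreted protein of radial glia and astroglia, was 436 and 1163 CPM and Aldh1l1, a folate enzyme used as an astroglial marker, 56.0 and 187 CPM, each higher with Pdgfra in 1 of 7. Jag1, a Notch ligand, was 44.2 and 125 CPM, and Gli3, a Hedgehog effector, 23.6 and 87.2 CPM. Ptprz1 was close in both sets, at 1633 CPM (1500 to 1775) and 1703 CPM (1542 to 1876).

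**Figure D3:**
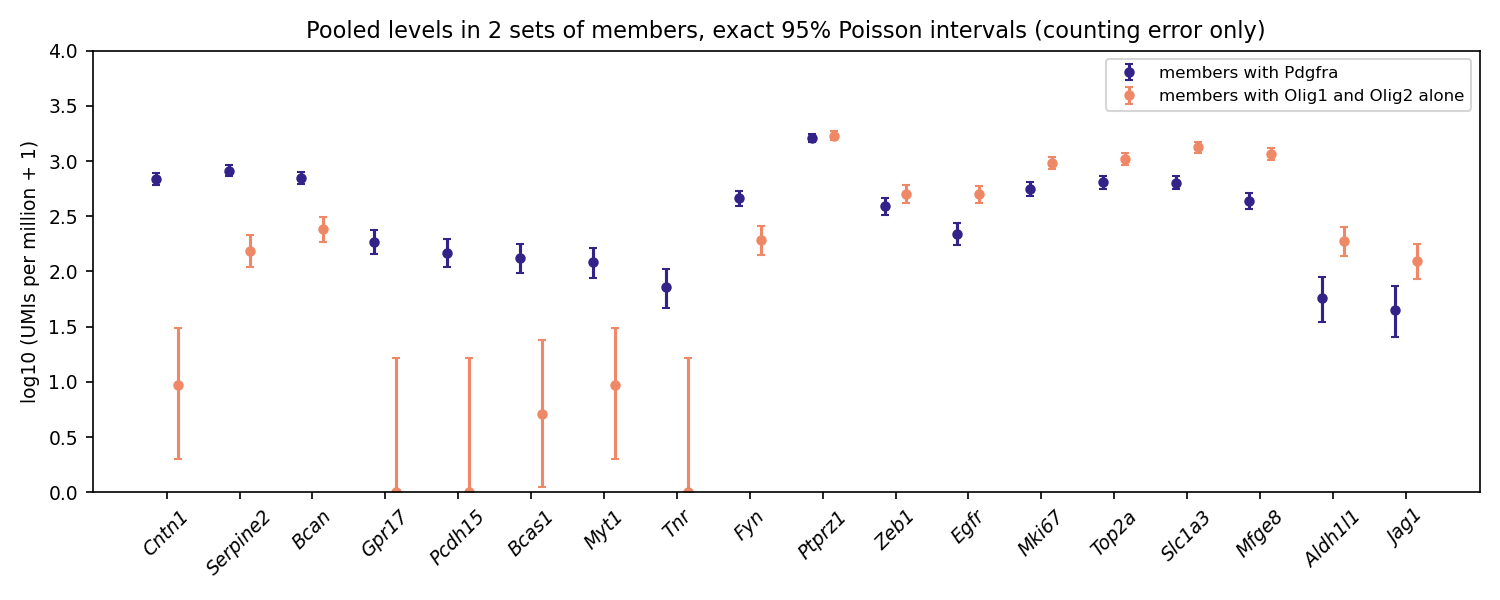
Pooled level of 18 genes on a log10 (CPM + 1) scale (vertical axis) in the 115 members with Pdgfra and the 70 with Olig1 and Olig2 alone, with exact 95% Poisson intervals. Genes from Cntn1 to Fyn lie higher with Pdgfra, and genes from Egfr to Jag1 lie higher with Olig1 and Olig2 alone; points on the axis are counts of 0.

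Genotype was compared over embryos, which had 21 to 36 members each. The libraries' preparation batches and the embryos' sexes are not given in the labels. Nothing in the labels pairs mutants with controls, and all embryos came from 1 litter.

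Members made up 1.37%, 0.920%, 0.942% and 0.714% of kept barcodes in the 4 mutants and 1.63%, 0.642% and 0.490% in the 3 controls. Control 14 was highest and control 16 lowest, so the mutants lay inside the range of the controls. The means were 0.987% ± 0.276 (SD, n = 4) and 0.922% ± 0.621 (SD, n = 3; two-sided exact permutation p = 0.857, adjusted p = 0.857 over 4 shares). The 35 splits of the embryos allow no p below 0.0286. Mutant 10 and control 14, which had the highest shares, also had the highest median UMIs per other kept barcode (1709 and 2123 against 1236 to 1434). Thinned to 1000 UMIs, the means were 0.710% and 0.639% (exact permutation p = 0.743).

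Shares within the members overlapped between genotypes too. Members with Pdgfra averaged 56.1% ± 9.40 among the mutants and 59.4% ± 6.29 among the controls. That is given as a description because Pdgfra is a gene of the rule, though it was counted among the 4 shares of the adjustment. Members with G2/M genes were 46.1% ± 13.1 and 52.7% ± 13.4 (two-sided exact permutation p = 0.514, adjusted p = 0.800). Members with a UMI of Gpr17, Bmp4, Enpp6, Neu4, Myrf or Itpr2, genes of committed cells, were 31.0%, 20.7%, 17.1% and 15.4% in the 4 mutants and 36.1%, 24.0% and 28.6% in the 3 controls. Mutant 10 lay inside the control range and the other 3 mutants below it (21.1% against 29.6% on average; exact permutation p = 0.143, adjusted p = 0.571).

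**Figure D4:**
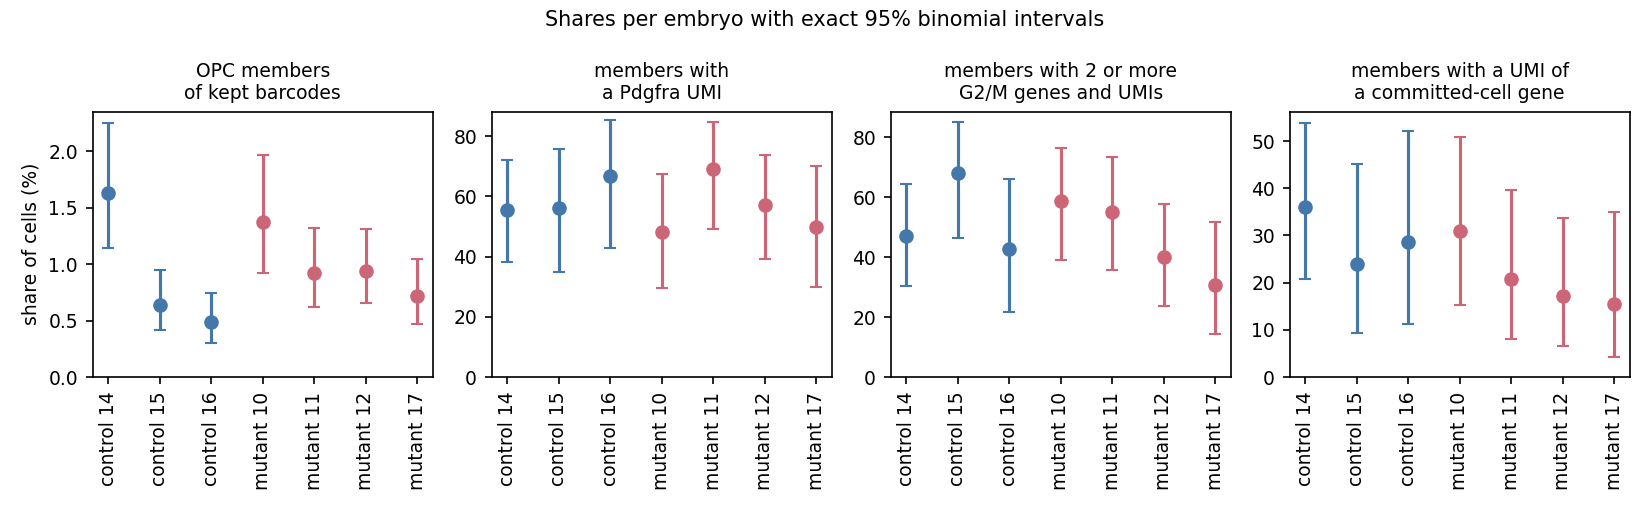
Share of cells in % (vertical axes) for each embryo (horizontal axes), with exact 95% binomial intervals that cover counting error only. Mutant and control embryos overlap in all 4 shares.

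Ash1l, the targeted gene, was read first among the genes. Members held 242, 149, 131 and 124 CPM in mutants 10, 11, 12 and 17, from 8 to 30 UMIs per embryo, and 119, 404 and 250 CPM in the 3 controls. Control 14 lay below all mutants and control 15 above them, so the groups overlapped. The means were 162 ± 54.6 CPM (SD, n = 4) and 258 ± 143 CPM (SD, n = 3). The log2 difference of −0.46 (SE 0.39) did not pass in edgeR, with an adjusted p of 0.979. Without control 15 it was 0.02. The labels do not say which exons the floxed allele loses, and UMIs from any other part of the transcript check nothing. Against all other barcodes Ash1l of members differed by 0.02 on the log2 scale (SE 0.17, adjusted p of 0.947 in edgeR), with the direction changing under 7 alternatives. Of 13 genes for histone H3 methyltransferases and partners, 2 (Nsd1 and Kmt2a) were lower in members than in all other barcodes and 1 (Whsc1) was higher than in radial glia. The 2 lower genes stand beside 16.6% lower among all genes tested, and RLE factors and DESeq2 each called 0 of the 13 lower.

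A pair of other genes were read for the recombinase allele. Esr1, the oestrogen receptor gene, part of which is contained in the CreERT2 fusion, had 0 UMIs in members of all 7 embryos, which allows up to 8.32 CPM in the 4 mutants together. All other barcodes held 9.71 ± 3.32 CPM in mutants and 0.894 ± 0.602 CPM in controls. Spr, a gene on chromosome 6 at 85130176 to 85137766, near Emx1 at 85187438 to 85204462 (mm10), had 15, 10, 8 and 7 UMIs (121, 124, 87.5 and 109 CPM) in the 4 mutants and 6, 0 and 2 UMIs (42.0, 0 and 38.5 CPM) in the 3 controls. The groups did not overlap, but the gene was too low for the main test, and with no filter on low counts its log2 difference of 1.81 (SE 0.58) had an edgeR adjusted p of 0.870.

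Of 1917 genes tested between genotypes in members, 0 (0.0%) passed the edgeR test, and 81 had an unadjusted p under 0.05. DESeq2 and limma voom also called 0 genes, with 155 and 92 at an unadjusted p under 0.05. Without members that carried markers of other cell types, 0 of 1510 genes passed in edgeR, with 66 at an unadjusted p under 0.05. The 8 genes with the smallest p were Gadd45g, Capzb, Hsp90aa1, Hspa5, Sparc, Tra2a, Abhd2 and Fosb, each with an edgeR adjusted p of 0.979. Because they were picked by p, a lack of overlap between genotypes is part of that choice and is no further support. The share of all 1917 tested genes without overlap is not given here. Gadd45g, a stress and growth arrest gene, was 411, 261, 241 and 217 CPM in the 4 mutants and 147, 171 and 96.2 CPM in the 3 controls (log2 fold change 1.05, SE 0.33). Capzb, an actin capping subunit, was 177, 161, 142 and 124 CPM across the mutants, below the 259, 295 and 327 CPM of the controls (−0.87, SE 0.28). The groups did not overlap in either. The chaperone genes Hsp90aa1 (375 ± 14.9 against 614 ± 101 CPM) and Hspa5 (851 ± 118 against 1346 ± 176 CPM; SD, n = 4 and 3) did not overlap either. Sparc, a matrix protein gene, was 64.5 CPM in mutant 10 and 140 to 323 CPM in the other mutants against 46.6 to 76.9 CPM, and 13 of its 86 UMIs came from the member of mutant 11 that held the microglia markers.

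**Figure D5:**
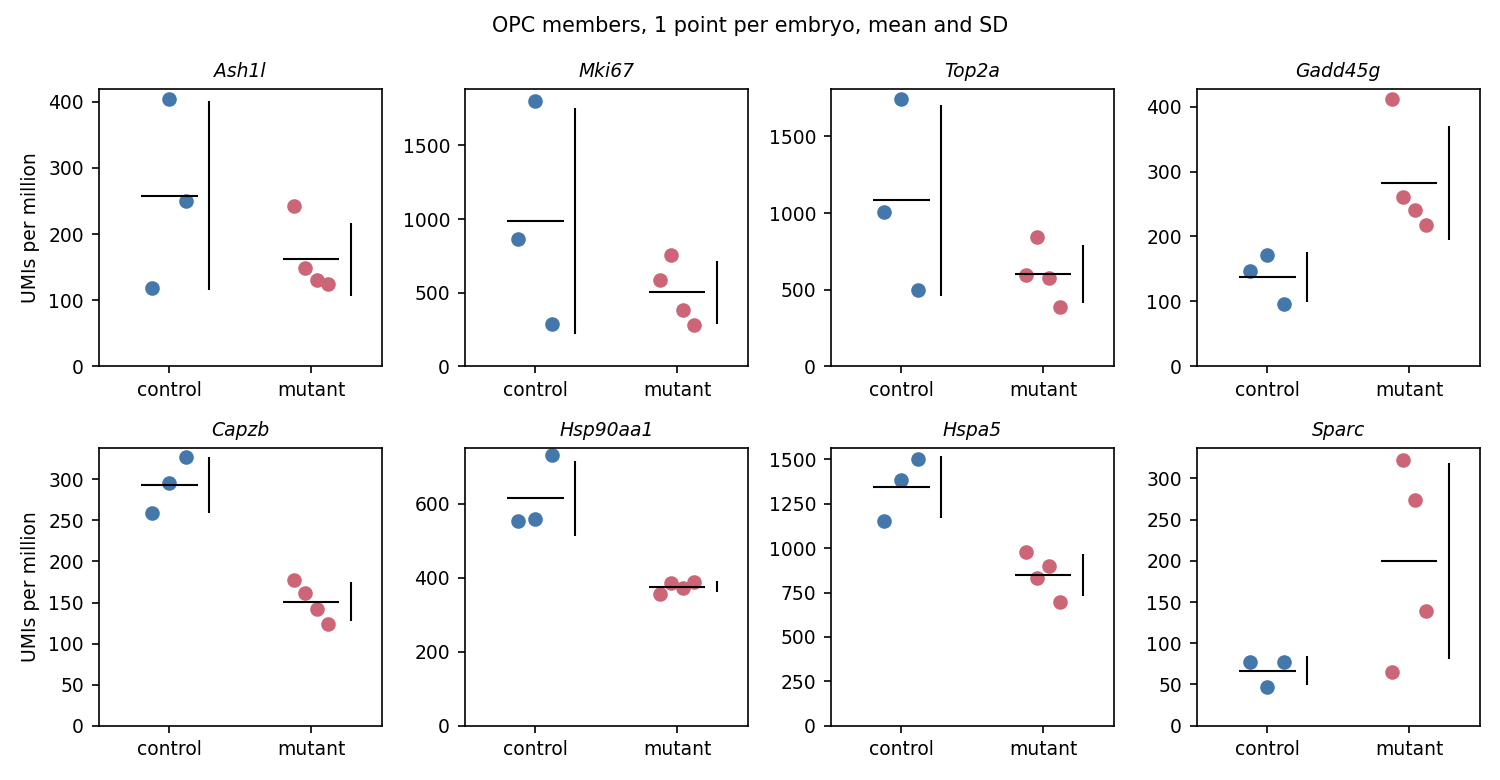
Level of 8 genes in members in CPM (vertical axes, linear from 0), with 1 point per embryo, a bar at the mean and a line of 1 SD on each side. Ash1l, Mki67, Top2a and Sparc overlap between genotypes. Gadd45g, Capzb, Hsp90aa1 and Hspa5, which were picked by smallest p, do not, and none of the 8 passed the test over all genes.

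The 5 genes that chose the members are part of the rule, so their genotype values are not read as tests here. Of these, 4 stayed in the genotype fit and 0 passed. All 5 stayed in the interaction fit below, where 0 of them passed. Of 11 tested identity genes outside the rule 2 were above 0 and 9 below, with a median of −0.18 against 0.00 over all genes tested and 0 passing. The lists of the cell cycle differed from each other. All 13 tested G2/M genes lay below 0 in mutants, with a median of −0.74 and 0 passing, while of 13 tested S phase genes 5 lay above 0 and 8 below, with a median of −0.16 and 0 passing. Mki67 (−0.93, SE 0.38; adjusted p = 0.979 in edgeR) and Top2a (−0.82, SE 0.31) were highest in control 15, at 1803 and 1741 CPM, while control 16, at 288 and 500 CPM, lay within the range of the mutants for both. In control 15, 3 of the 25 members held 51.0% of the UMIs of the G2/M list, and in the 7 embryos the 3 highest members held 41.4% to 77.4%.

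Whether the genotype effect in members differed from that in all other barcodes was tested as an interaction with the embryo as a block. Of 12055 genes 2 (0.0166%) passed, 1 (0.0083%) with a higher and 1 (0.0083%) with a lower value in members. Col4a1, a basement membrane collagen, had 3, 11, 2 and 22 UMIs in members of the 4 mutants and 0 in all 3 controls (difference 10.75 on the log2 scale, SE 2.28; edgeR adjusted p = 0.0277). Of the 22 UMIs in mutant 17, 20 came from 1 member, with Olig1 and Cspg4, that also held 19 of the 20 Rgs5 UMIs of that embryo, and Rgs5 marks pericytes. A fitted difference against a group at 0 depends on the prior count and is no bound. Without members that carried markers of other cell types, 0 genes passed in edgeR (544 at an unadjusted p under 0.05) and Col4a1 differed by 8.60 on the log2 scale (edgeR adjusted p = 0.999). The Col4a1 call was also lost without mutant 17 (9.86, edgeR adjusted p = 0.569), control 14 (10.57, adjusted p = 0.997) or control 16 (10.52, adjusted p = 0.0535), with the fitted difference keeping its direction. It was lost too with members limited to Neurod6 of 0 in 6 embryos (10.67, edgeR adjusted p = 0.0796) and to at least 3 rule UMIs (10.43, adjusted p = 0.261). Hbb-bt, a haemoglobin gene, differed by −2.12 (SE 0.47; edgeR adjusted p = 0.0337), and 25 of the 28 UMIs of control 14 came from 1 member. Without control 14 the difference was 0.20, and the call was also lost without mutant 10 (edgeR adjusted p = 0.360) or mutant 12 (0.397). Without members carrying other markers it was −2.12 (edgeR adjusted p = 0.0585), and 3 other alternatives that kept all embryos also lost the call.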

How the data were processed

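Seq-Well libraries from 7 embryonic cortices were deposited by the authors as whole-number UMI counts per gene and barcode, aligned with STAR to mm10 per the submitters' processing notes; versions and earlier barcode filters were not given in the sources used here. The members and the gene lists were chosen with earlier results of these data known.

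Of 50191 barcodes, 23005 with at least 500 genes and at most 10% mitochondrial UMIs were kept. UMIs were summed per embryo and class (at least 20 members per embryo) and tested with edgeR 4.0.16 (quasi-likelihood, TMM, filterByExpr, Benjamini-Hochberg, threshold 0.05; R 4.3.3), with the embryo as a block between classes. The 7 genes of the rule were left out of the comparison with all other barcodes, and those of the radial glia gate also from that comparison. The genotype fit had no block. Embryos are littermates with separate libraries, so p-values measure the spread between these 7 samples. The script was tested on simulated data. DESeq2 1.42.0, limma 3.58.1, RLE factors, no filter, other member rules, thinning to 1000 UMIs and leaving out each embryo were alternatives.

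Named genes were the rule genes, Ash1l, Esr1, Spr and Emx1, the 15 higher and 10 lower genes of largest fold change (at least 50 CPM, same sign in every embryo), the 8 smallest p between genotypes, and list members of high level or large change. Others named as examples of a list were chosen after their values were seen. Some list members are counted but not reported here by name. Shares were compared by two-sided exact permutation tests (scipy 1.17.1). Intervals are exact 95% Clopper-Pearson or Poisson and cover counting error only, and a count of 0 was read as allowing 3 counts.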

Additional observations from a re-analysis of the deposited data

Results flagged for a closer look

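Emx1 in members of mutant 17 stood at 77.52 CPM, from 5 UMIs, while the other mutants lay between 10.9 and 16.1 CPM. It was the only sample far from the rest of its group (by Dixon's critical value of 0.829 for 4 samples) among 25 sets of values tested in the mutants, and chance flags about 1 in 20 groups.

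The genotype effect in members differed from that in all other barcodes for Col4a1, by 10.75 on the log2 scale (edgeR adjusted p = 0.0277), with UMIs in members of 4 of 4 mutants and 0 of 3 controls. It also differed for Hbb-bt, by −2.122 (edgeR adjusted p = 0.0337), with the highest level in members of control 14. Each rests largely on 1 member: 20 of 38 Col4a1 UMIs came from a member of mutant 17 and 25 of 47 Hbb-bt UMIs from a member of control 14.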

How the results depend on the processing

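The 25 genes named against radial glia kept direction and call in 395 of 395 alternative fits, counting only fits that tested the gene. Against all other barcodes, 27 genes, Ash1l and Emx1 among them, did so in 439 of 447. The named genes were picked for passing with large folds and the same sign in every embryo, so this stability largely follows from the choice. Thinning to 1000 UMIs left 1391 genes called against all other barcodes and 111 against radial glia, with fewer genes tested, and 10.6% of the first were higher, against 49.0% with RLE factors and 39.8% in the edgeR fit reported. Leaving out 1 embryo gave 2432 to 2971 and 344 to 505 calls. With the block left out (no pairing by embryo) the calls were 3136 and 405. Mutants could not be paired with controls, because nothing in the labels pairs them.

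Between genotypes, 7 of 13703 genes passed with no filter on low counts (Col1a1, Col1a2, Col3a1, Col4a1, Nts and Rgs5 higher, Gm26772 lower). Single members of mutant 17 held 22 of 23 Nts UMIs, 19 of 21 Rgs5 UMIs and 20 of 38 Col4a1 UMIs. A single member of mutant 11 held 38 of 39 Col1a1, 34 of 37 Col1a2 and 39 of 40 Col3a1 UMIs. With the filter, 0 genes passed without any 1 embryo. The interaction count was 1 with a minimum of 300 genes, 6 with Neurod6 of 0 (6 embryos), 0 without members carrying other markers, 1 with no filter, and 0 to 8 without 1 embryo. The member share difference turned to −0.037 percentage points with a minimum of 300 genes, and ran from −0.151 to 0.421 without 1 embryo. The G2/M share ran from −11.5 to 1.10 and the committed share from −11.8 to −5.22 without 1 embryo. The Pdgfra share turned to 9.74 after thinning and ran from −7.60 to 0.318.

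Ash1l against all other barcodes turned to −0.184 with at least 3 rule UMIs, −0.000872 with a minimum of 300 genes, −0.0052 without members carrying other markers, −0.771 after thinning, −0.0316 with no filter, −0.102 without mutant 10 and −0.128 without control 15, and its highest value without 1 embryo was 0.134. Between genotypes it ran from −0.916 to 0.020, turning without control 15. The rule genes were read between genotypes as a description. Pdgfra turned to 0.0316 with Neurod6 of 0, where control 16 fell under 20 members and was left out. It turned to 0.012 without control 16, and was −0.531 at its lowest without 1 embryo. Cspg4 turned to 0.0909 with Neurod6 of 0 and at least 10 members, 0.153 without mutant 12, 0.274 without control 14 and 0.067 without mutant 17 (lowest without 1 embryo −0.363, lowest of all −0.395 without members carrying other markers). Hbb-bt turned to 0.199 without control 14 (lowest without 1 embryo −2.83, lowest of all −3.68 with at least 3 rule UMIs). The causes were not tested. The rules of at least 3 rule UMIs and of members with Pdgfra left too few embryos at 20 members to be run between genotypes. At 10 members, chosen after seeing the data, 0 of 1375 genes passed between genotypes with at least 3 rule UMIs and 0 of 872 among members with Pdgfra. Without the member richest in collagen, also chosen after seeing the data, the calls were 3061, 492 and 0. With 21 to 36 members an embryo, 1 UMI is worth up to 19.2 CPM, which limits every genotype comparison here.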
